A study of Homo sapiens with 4 samples.

Results

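The 10 genes described here sense foreign or misplaced nucleic acid inside human cells or relay that signal. They are the RNA helicases DDX58 (RIG-I), IFIH1 (MDA5) and DHX58 (LGP2), the endosomal receptor TLR3, the RNA-activated kinase EIF2AK2 (PKR), the adaptors MAVS and TMEM173 (STING), the kinase TBK1, the transcription factor IRF3 and the interferon beta gene IFNB1. They were taken by name as a fixed list, and all 10 were found among the 23004 gene names of the deposited files. The cells were BEAS-2B, an immortalized line of human bronchial epithelium, and total RNA was sequenced from 2 untreated libraries and from 2 libraries of cells exposed to 100 µM formaldehyde for 48 h. Formaldehyde is a small reactive aldehyde that crosslinks DNA and protein. Dose and time come from the labels, and the compound from the title of the series. Both groups share the cell line and the extraction, and no vehicle is given for the untreated cells. The comparison asks whether expression of the sensing machinery or of its interferon ligand differed after the exposure.

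RIG-I and MDA5 bind double-stranded or uncapped RNA in the cytosol and signal through MAVS on the mitochondrial surface, with LGP2 as a regulator that lacks the signalling domains. STING relays the presence of cytosolic DNA, which the enzyme cGAS turns into a cyclic dinucleotide, and TLR3 reads double-stranded RNA in endosomes. All of these routes reach TBK1, which phosphorylates IRF3, and phosphorylated IRF3 enters the nucleus and switches on IFNB1. The activity of TBK1, IRF3 and PKR is set mainly by phosphorylation, which an RNA measurement does not read. DDX58, IFIH1, DHX58, TLR3 and EIF2AK2 are also known as interferon-stimulated genes, whose RNA rises when interferon signalling is on.

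Values are FPKM, which are fragment numbers divided by transcript length and library depth, as the authors deposited them, summed over the transcripts of a gene. In the order untreated 1, untreated 2, formaldehyde 1 and formaldehyde 2, the depth recovered from the files was 16.8, 26.5, 14.2 and 22.2 M fragments (M, mega), so the second library of each group was the deeper one. The keratins KRT8 and KRT18 of simple epithelium were abundant and higher in both treated libraries. KRT8 read 291 and 290 FPKM in untreated cells against 447 and 416 FPKM, and KRT18 read 226 and 206 FPKM against 358 and 418 FPKM. Of the 8 markers chosen for the epithelial line, VIM included, 4 were tested, with a median log2 fold change of 0.54 (0 called by limma). Of these, 3 (KRT8, KRT18 and VIM) had both treated libraries above both untreated ones and 0 had them below. The shares over all genes tested were 16.2% and 10.7%. The part of these markers in the values of the members was not tested. The basal-cell markers KRT5 and TP63 were listed at 0 in every library. KRT19 read 0.0940 and 0.378 FPKM without and 0.0555 and 0.0533 FPKM with formaldehyde. CDH1 read 0.168 and 0.631 FPKM against 0.0610 and 0.117 FPKM. Both genes thus read lower in the treated libraries, but they were under the filter of 1 FPKM and not tested. The mesenchymal filament VIM stood at 642 to 1043 FPKM, so the libraries carry RNA of a keratin-positive line without basal markers. Of 8 leukocyte markers, CD3E was at 0 and the pan-leukocyte gene PTPRC did not pass 0.0232 FPKM. CD68 and CD14 were detected. CD14 read 3.75 and 12.0 FPKM in untreated cells against 1.77 and 6.23 FPKM, with overlapping groups, and CD68 read 12.8 and 16.4 FPKM without and 42.8 and 22.0 FPKM with formaldehyde. Of the markers of plasmacytoid dendritic cells, the main interferon source of blood, CLEC4C was at 0 and the 5 together summed to 0.187 to 0.673 FPKM. The labels do not say that the libraries of a group came from separate cultures, so a p-value here is relative to a spread between libraries that may be technical. In bulk RNA, a change in the number of expressing cells and a change in RNA per cell cannot be told apart.

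Promoter sequences are shown, as a description, for the 5 members in which a short motif was found. A link between the motif and the change of a member was not tested. RefSeq promoters (build GRCh38.p14, 300 bases around the start) were in the table used for 7 of the 10 genes, DDX58 under the symbol RIGI. DHX58, TMEM173 and IRF3 were not matched. Each was searched on both strands for AANNGAAA, the core of the sites that interferon regulatory factors bind, and matches could overlap each other. The core occurred in 23.2% of the 27305 promoters in the table. Windows of 220 bases, from 210 bases before to 10 bases after the start, are printed on the strand of the gene with matches to the core on either strand in capitals. In order they are chr9:32526187-32526406 (minus strand), chr2:162318675-162318894 (minus), chr2:37156971-37157190 (minus), chr4:186068946-186069165 (plus) and chr9:21077933-21078152 (minus).
DDX58: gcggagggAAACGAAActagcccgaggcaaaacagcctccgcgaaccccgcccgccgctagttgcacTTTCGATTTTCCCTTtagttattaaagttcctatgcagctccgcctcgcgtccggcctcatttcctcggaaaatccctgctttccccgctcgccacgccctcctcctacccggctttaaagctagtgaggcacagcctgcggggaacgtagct
IFIH1: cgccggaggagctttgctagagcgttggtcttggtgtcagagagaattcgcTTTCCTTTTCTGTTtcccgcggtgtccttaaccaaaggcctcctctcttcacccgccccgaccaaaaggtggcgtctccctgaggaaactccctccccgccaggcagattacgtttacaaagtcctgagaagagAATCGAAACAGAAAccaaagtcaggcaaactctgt
EIF2AK2: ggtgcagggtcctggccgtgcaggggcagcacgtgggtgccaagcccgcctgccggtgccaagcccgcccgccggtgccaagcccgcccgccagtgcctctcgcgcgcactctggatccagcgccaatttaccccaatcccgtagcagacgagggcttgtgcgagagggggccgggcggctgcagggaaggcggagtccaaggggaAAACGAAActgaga
TLR3: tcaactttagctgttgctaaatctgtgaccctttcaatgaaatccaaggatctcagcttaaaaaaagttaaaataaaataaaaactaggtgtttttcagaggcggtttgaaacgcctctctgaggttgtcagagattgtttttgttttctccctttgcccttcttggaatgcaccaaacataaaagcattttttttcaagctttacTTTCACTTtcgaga
IFNB1: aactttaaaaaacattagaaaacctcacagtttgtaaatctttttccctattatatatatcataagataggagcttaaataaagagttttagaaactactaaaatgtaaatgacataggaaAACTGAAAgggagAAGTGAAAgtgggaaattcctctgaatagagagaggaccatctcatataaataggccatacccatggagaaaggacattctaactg
The core was found 3 times at DDX58, 4 times at IFIH1, 2 times at IFNB1 and once each at EIF2AK2 and TLR3. It was not among the 300 bases searched at MAVS and TBK1. A match is a string of letters and no measurement of binding.

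None of the members passed the test for a difference with formaldehyde. The test was limma, a linear model with a spread shared across genes, on log2(FPKM + 1) of the 12407 genes with a mean of at least 1 FPKM, with Benjamini-Hochberg adjustment over all of them and a threshold of 0.05. Of the 9 members tested, 0 were called, and over all genes 19 were called (10 higher and 9 lower), which is 0.153%. With genes of at least 300 nt alone, a length that every member passes, 1 of 12015 was called. The limma adjusted p was 0.9999 for each of the 9, and DDX58 was the only member with an unadjusted p under 0.05, among 343 such genes of the 12407. A description that needs no test is whether the groups overlap. The formaldehyde libraries were both higher than either untreated one for 4 of the 9 members (DDX58, IFIH1, EIF2AK2 and TMEM173), where 16.2% of all genes did so. Both lay below for 1, TLR3, where 10.7% of all genes did so. With 2 libraries a group the smallest p of an exact permutation test is 0.33, so no member was tested that way. The median log2 fold change of the 9 was 0.37, beside 0.03 over all genes, of which 55.1% were above 0. That median rested on single libraries: it was 0.09 without formaldehyde replicate 2, 0.54 without formaldehyde replicate 1, 0.41 without untreated replicate 2 and 0.20 without untreated replicate 1, when the median over all genes was 0.09. Rescaling the libraries by median ratios or by quantiles left 3 members above, without TMEM173, and the quantiles also left none below.

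**Figure D1:**
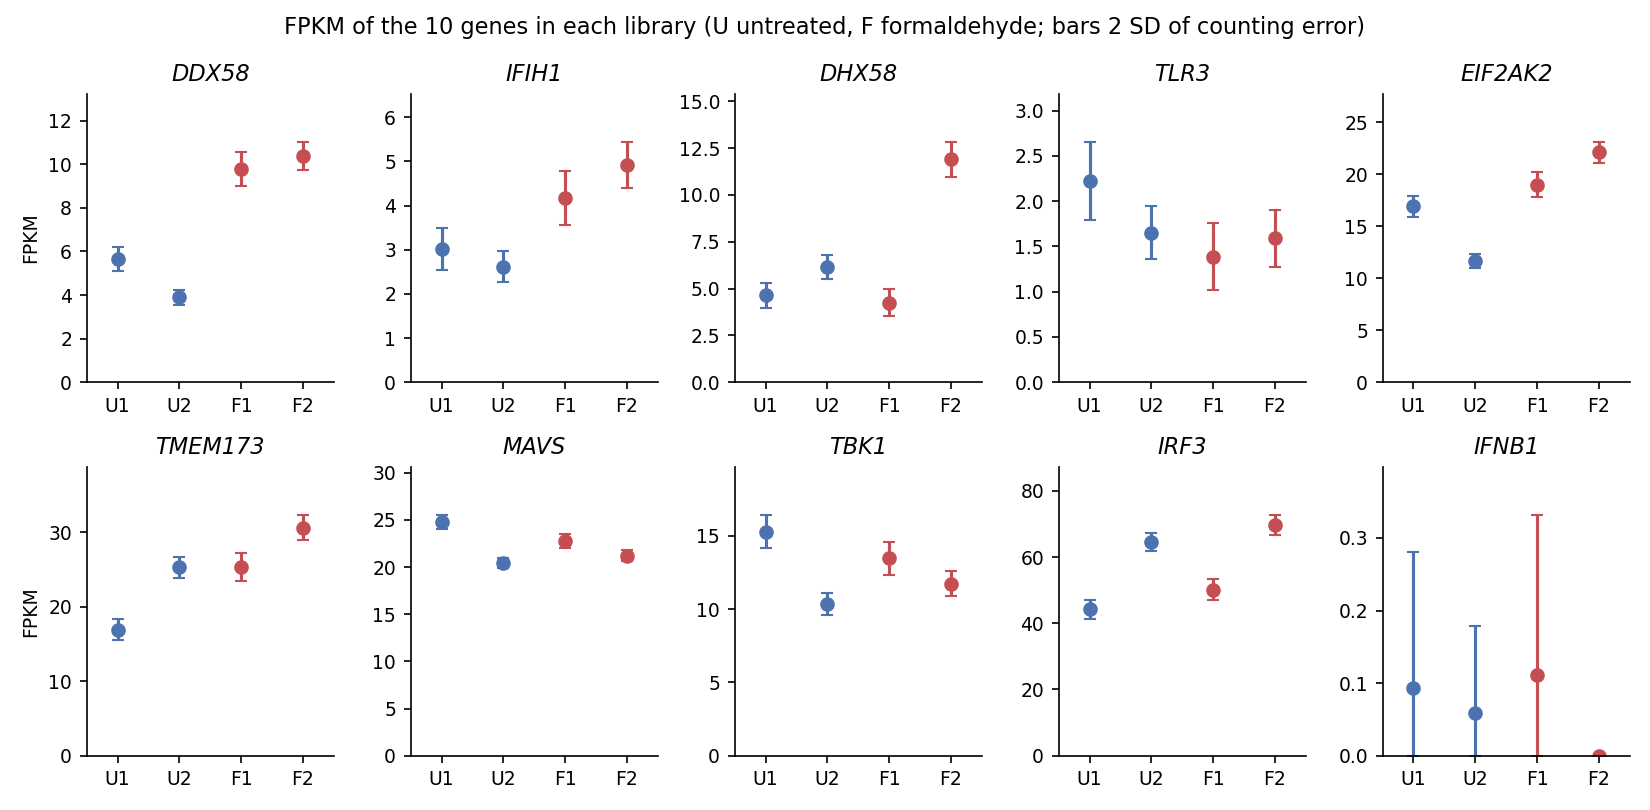
FPKM (vertical axes, each from 0) of the 10 genes in untreated libraries (U1, U2, blue) and formaldehyde libraries (F1, F2, red); bars are 2 SD of counting error, cut at 0, and the IFNB1 library at 0 has no bar. DDX58, IFIH1, EIF2AK2 and TMEM173 read higher in both red points than in both blue ones. For EIF2AK2 and TMEM173 the bars of the nearest points overlap. DHX58 is high in F2 alone and IFNB1 does not pass 1 fragment in any library.

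DDX58 encodes RIG-I, the cytosolic sensor of uncapped RNA ends, from 18 exons on chromosome 9 (hg19, 32455300 to 32526322, minus strand). It read 5.66 and 3.89 FPKM in untreated libraries 1 and 2, and 9.81 and 10.4 FPKM in formaldehyde libraries 1 and 2. Both treated libraries were above both untreated ones, and the treated libraries lay closer to each other than the untreated ones did. The values rest on 433, 469, 635 and 1052 fragments, which gives counting errors (2 SD) of 6.17% to 9.61%. The mean was 2.11-fold higher, and the log2 fold change was 0.96 ± 0.24 (SE) with a 95% interval of 0.34 to 1.57 (limma unadjusted p = 0.0103, adjusted p = 0.9999). Of the 12407 genes tested, 214 (1.72%) had a larger log2 fold change. With each library left out in turn it stayed between 0.74 and 1.18, and the limma adjusted p ran from 0.464 to 1 over 13 alternative settings.

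IFIH1 encodes MDA5, the sensor of long double-stranded RNA, from 16 exons on chromosome 2 (hg19, 163123589 to 163175039, minus strand). It read 3.02 and 2.62 FPKM without and 4.17 and 4.93 FPKM with formaldehyde, from 163, 223, 191 and 352 fragments. The groups did not overlap. Its counting errors (2 SD) were 10.7% to 15.7%, wider than those of DDX58. The mean was 1.61-fold higher, with a log2 fold change of 0.54 ± 0.22 (SE) and a 95% interval of -0.02 to 1.10 that includes 0 (limma adjusted p = 0.9999).

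DHX58 encodes LGP2, the helicase of this family without signalling domains, from 14 exons on chromosome 17 (hg19, 40253422 to 40264751, minus strand). It read 4.64 and 6.15 FPKM without and 4.25 and 11.9 FPKM with formaldehyde. The first formaldehyde library was the lowest of the 4 and the second was the highest, so the groups overlapped. Formaldehyde 2 differed from the other 3 libraries by more than counting error, since the values rest on 188, 393, 146 and 638 fragments, with counting errors of 7.92% to 16.6%. The log2 fold change of 0.37 ± 0.47 (SE) had the widest interval of the members, -0.83 to 1.58 (limma adjusted p = 0.9999). It was -0.27 without formaldehyde replicate 2 and 1.02 without formaldehyde replicate 1. DDX58 and IFIH1 thus read higher in both treated libraries and DHX58 in one, but the interval of DHX58 contains the estimates of the other two, and a difference between them was not tested.

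TLR3, the endosomal receptor for double-stranded RNA, lies on chromosome 4 (hg19, 186990309 to 187006252, plus strand) with 5 exons. It was the lowest of the members tested, at 2.22 and 1.65 FPKM without and 1.39 and 1.59 FPKM with formaldehyde. Both treated libraries were below both untreated ones, but the gap between the nearest, 1.65 and 1.59 FPKM, was smaller than their counting errors of 18.0% and 20.0%. The counts behind it were 106, 124, 56 and 100 fragments. The log2 fold change was -0.23 ± 0.24 (SE, 95% interval -0.86 to 0.39, limma adjusted p = 0.9999). It was -0.09 with untreated 1 left out and -0.38 with untreated 2 left out. TLR3 thus stood opposite in sign to the cytosolic RNA sensors, though the difference between them was not tested.

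EIF2AK2 encodes PKR, which binds double-stranded RNA and halts translation by phosphorylating eIF2 alpha. It lies on chromosome 2 (hg19, 37332284 to 37384190, minus strand) with 3 transcripts. It read 16.9 and 11.7 FPKM without and 19.0 and 22.1 FPKM with formaldehyde, and the groups did not overlap. The nearest libraries, untreated 1 and formaldehyde 1, had counting errors (2 SD) of 5.99% and 6.14%. Their ranges overlapped, so the separation of the groups lies within counting error. By replicate number the ratio of formaldehyde to untreated was 1.12 for the first and 1.89 for the second library. The mean was 1.44-fold higher, with a log2 fold change of 0.51 ± 0.25 (SE, 95% interval -0.14 to 1.16, limma adjusted p = 0.9999). Most of its signal was given to NM_001135651, at 16.3 and 8.92 FPKM without and 18.0 and 18.3 FPKM with formaldehyde, which is 76.2% to 96.5% of the gene. The deposited bounds of NM_001135651 overlapped between untreated 1 (15.3 to 17.4 FPKM) and formaldehyde 1 (16.8 to 19.2 FPKM). Leaving out untreated 2 gave a log2 fold change of 0.26 for the gene, and leaving out untreated 1 gave 0.76. The log2 fold change of that highest transcript alone was 0.55.

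TMEM173 encodes STING, the membrane adaptor of the DNA-sensing route, on chromosome 5 (hg19, 138855113 to 138862343, minus strand) with 8 exons. It read 16.9 and 25.3 FPKM without and 25.4 and 30.6 FPKM with formaldehyde. The untreated libraries differed from each other more than untreated 2 differed from either treated library. The deposited bounds of untreated 2 (23.9 to 26.7 FPKM) and of formaldehyde 1 (23.5 to 27.3 FPKM) overlapped, so the separation of the groups rests on a difference within counting error. On the log2 scale the change was 0.41 ± 0.27 (SE, 95% interval -0.28 to 1.10, limma adjusted p = 0.9999). Without untreated replicate 1 it was 0.14, and without untreated replicate 2 it was 0.69.

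MAVS, the mitochondrial adaptor of RIG-I and MDA5, lies on chromosome 20 (hg19, 3827446 to 3856770, plus strand). It read 24.8 and 20.4 FPKM without and 22.8 and 21.2 FPKM with formaldehyde, so both treated values lay between the untreated ones. It was the most evenly expressed of the members, with a range of 20.4 to 24.8 FPKM. The log2 fold change was -0.03 ± 0.20 (SE), and its interval of -0.56 to 0.49 contains changes in both directions (limma adjusted p = 0.9999). Leaving out untreated 1 gave 0.10, and leaving out formaldehyde 2 gave 0.02. At least 98.3% of its FPKM was given to NM_020746 in each library.

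TBK1, the kinase on which the RNA and DNA routes converge, lies on chromosome 12 (hg19, 64845840 to 64895899, plus strand) with 21 exons. It read 15.3 and 10.3 FPKM without and 13.5 and 11.7 FPKM with formaldehyde. As with MAVS, the treated values fell between the untreated ones. On the log2 scale the change was -0.0025 ± 0.25 (SE, 95% interval -0.66 to 0.65, limma adjusted p = 0.9999). Leaving out untreated 1 gave 0.26, and leaving out formaldehyde 2 gave 0.09.

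IRF3, the transcription factor that TBK1 phosphorylates, was the most abundant member. It lies on chromosome 19 (hg19, 50162826 to 50169132, minus strand) and overlaps BCL2L12 on the other strand, and without a stated strand setting the reads of the 2 genes cannot be told apart where they overlap. It read 44.2 and 64.5 FPKM without and 50.1 and 69.6 FPKM with formaldehyde. The second library of each group was the higher one, and the groups overlapped. On the log2 scale the change was 0.14 ± 0.29 (SE, 95% interval -0.62 to 0.90, limma adjusted p = 0.9999). Leaving out untreated 1 gave -0.13, and leaving out formaldehyde 2 gave -0.09.

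The deposited files split IRF3 into 8 transcripts, and the split differed by replicate number. NM_001571 held 57.5% of the gene in untreated 1 and 41.3% in formaldehyde 1, but 9.60% and 14.8% in the second libraries. NM_001197126 read 12.8 and 9.63 FPKM in the second untreated and formaldehyde libraries, and under 0.001 FPKM in the first ones. NM_001197122 read 10.5 and 28.5 FPKM without and 19.0 and 24.6 FPKM with formaldehyde. The highest transcript of each library was NM_001571 in the first libraries and NM_001197122 in the second ones. Taking it gave a log2 fold change of -0.24, against 0.14 for the sum. That value mixes transcripts and is not the change of a single transcript. Depth also differed by replicate number, and its part in the split was not tested.

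**Figure D2:**
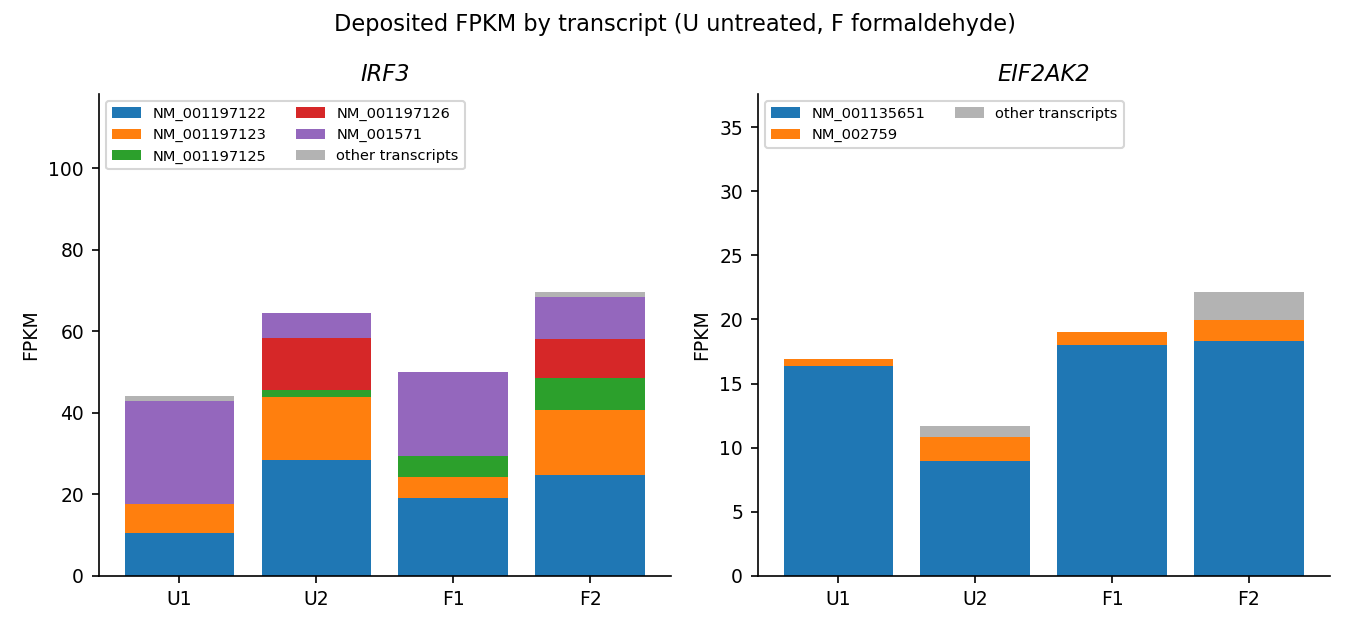
Deposited FPKM (vertical axis) by transcript in each library (U untreated, F formaldehyde), stacked to the gene sum, for IRF3 and EIF2AK2; coloured pieces are transcripts that hold at least 10% of the gene in some library. NM_001571 is the larger piece of IRF3 in U1 and F1, at 25.4 and 20.7 FPKM, and NM_001197126 appears in U2 and F2.

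IFNB1, the ligand at the end of these routes, was silent by this measure. The gene has 1 exon of 840 nt on chromosome 9 (hg19, 21077104 to 21077943, minus strand). It read 0.0936 and 0.0594 FPKM without and 0.110 and 0 FPKM with formaldehyde, which corresponds to 1, 1, 1 and 0 fragments. A count of 0 allows up to 3 fragments, and 3 fragments of this gene equal 0.178 to 0.332 FPKM over the 4 libraries, so all 4 values lay at or under that floor. IFNB1 was therefore not tested, and no fold is given. A difference below that level was not detectable at this depth, and the value refers to the 48 h time point alone.

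The other interferon genes were at or near 0. Of 21 interferon genes found, IFNB1 included, 18 were listed at 0 in all 4 libraries, among them all 13 alpha genes, a family of near-identical copies. How reads shared by such copies were treated is not stated, so a value of 0 for an alpha gene may also reflect reads that were dropped or given to another copy. For the genes at 0 the floor of 3 fragments ran from 0.0865 to 0.576 FPKM. IFNE, an interferon of epithelium, had 4, 13, 2 and 4 fragments and was the exception, with 0.387 FPKM in untreated 2 against a floor of 0.0893 FPKM. IFNL1, a lambda interferon of epithelium, had 1 fragment in untreated 1 and 1 in formaldehyde 1. No type I, II or III interferon gene thus reached the filter of 1 FPKM.

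In order of mean FPKM the members ran IRF3 (57.1), TMEM173 (24.6), MAVS (22.3), EIF2AK2 (17.5), TBK1 (12.7), DDX58 (7.44), DHX58 (6.74), IFIH1 (3.68), TLR3 (1.71) and IFNB1 (0.0659). Neighbours in that order overlapped in their ranges over the 4 libraries, except IRF3 with TMEM173, IFIH1 with TLR3 and TLR3 with IFNB1. By mean, IRF3, the adaptors TMEM173 and MAVS, EIF2AK2 and TBK1 therefore stood above DDX58, DHX58, IFIH1 and TLR3. This did not hold in every library, as DHX58 (11.9 FPKM) read above TBK1 (11.7 FPKM) in formaldehyde 2. IFNB1 was the only silent member, and the other 9 were above 1 FPKM in every library. The genes that read higher in both treated libraries were spread over this order, from TMEM173 to IFIH1.

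**Figure D3:**
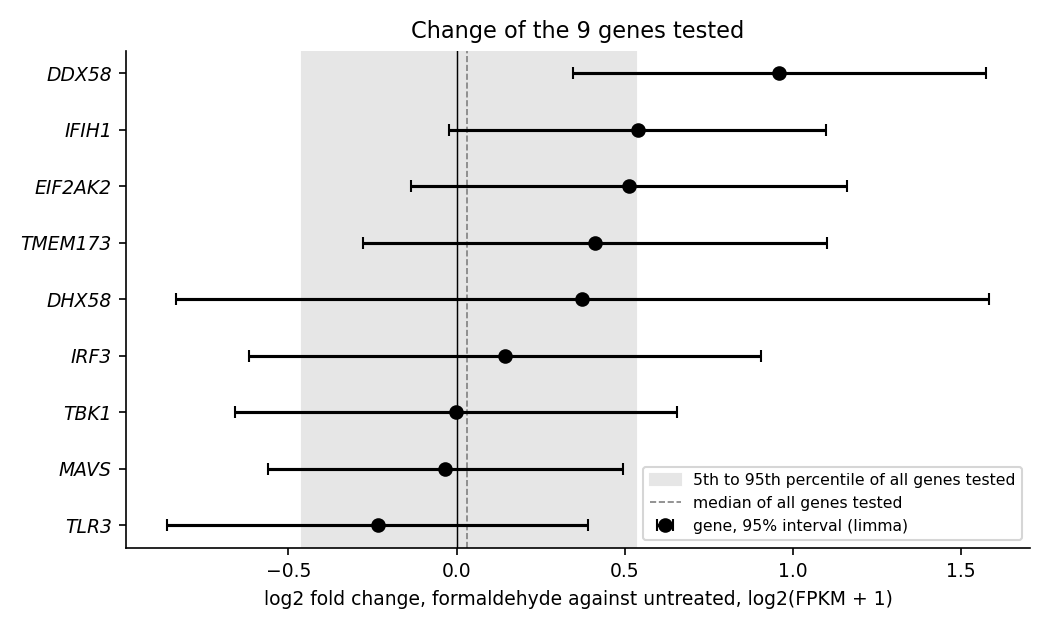
Log2 fold change of formaldehyde against untreated on log2(FPKM + 1) (horizontal axis) for the 9 members tested, with 95% limma intervals; the grey band spans the 5th to 95th percentile of all 12407 genes, -0.46 to 0.53, and the dashed line is their median of 0.03. The interval of DDX58, 0.34 to 1.57, is the only one that does not include 0.

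The pathway around the members was read from 9 lists of other genes. Together they and the interferons hold 163 genes found, of which 131 were tested and 0 were called by limma. In both treated libraries 34 were above (26.0%) and 12 below (9.16%), beside 16.2% and 10.7% over all genes. The median log2 fold change was 0.09. Of 21 cofactors of RNA sensors, 10 were above and 0 below, with a median of 0.20. DDX60, a helicase linked to RIG-I signalling, read 1.98 and 1.24 FPKM without and 4.56 and 3.21 FPKM with formaldehyde, and ZNFX1, an RNA-binding helicase, read 15.4 and 12.6 FPKM against 22.2 and 18.5 FPKM. Rescaling by median ratios or by quantiles left the 10 and moved 1 cofactor to below. Without untreated replicate 2 the median was 0.05 (-0.02 over all genes), and without untreated replicate 1 it was 0.44 (0.09 over all genes). Without formaldehyde replicate 2 it was 0.31 (0.03 over all genes). With fewer libraries the groups overlap less readily, so no counts are given for these settings. The counts of genes above and below describe lists that were not tested as sets.

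On the DNA side, 4 of 16 tested sensors and partners were above (25%) and 1 below (6.25%), beside 16.2% and 10.7% over all genes. Their median log2 fold change was 0.06. It was -0.02 after rescaling by quantiles, -0.01 without formaldehyde replicate 2 and 0.15 without untreated replicate 1. IFI16, a nuclear DNA sensor, read 36.0 and 27.4 FPKM without and 37.7 and 48.5 FPKM with formaldehyde. RAD50, a subunit of the break-repair complex that can also bind cytosolic DNA, read 14.6 and 12.4 FPKM against 16.0 and 16.9 FPKM. MNDA was listed at 0 in every library. Among 14 nucleases and editors that limit self nucleic acid, 3 were above (21.4%) and 2 below (14.3%), near the shares over all genes. PNPT1, which degrades mitochondrial RNA, read 12.4 and 7.29 FPKM without and 15.7 and 15.4 FPKM with formaldehyde, and TREX1, the exonuclease that clears cytosolic DNA, read 13.4 in both untreated libraries and 9.91 and 12.2 FPKM with formaldehyde.

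Of 9 tested partners of the endosomal receptors, 1 was above (11.1%) and 0 below, beside 16.2% and 10.7% over all genes. The gene above was IRAK1, a kinase used by other Toll-like receptors, at 82.3 and 62.9 FPKM without and 135 and 108 FPKM with formaldehyde. TICAM1, the adaptor through which TLR3 signals, read 9.77 and 13.7 FPKM against 13.5 and 15.7 FPKM, so its groups overlapped. TLR8 was at 0 in all libraries. Among 20 kinases, adaptors and interferon regulatory factors around TBK1, 3 were above (15%) and 1 below (5%). IRF7, which amplifies interferon transcription, read 13.1 and 18.9 FPKM without and 20.3 and 36.2 FPKM with formaldehyde. Of 17 brakes on sensing, 2 were above and 2 below (11.8% each). The largest difference was that of USP18, which removes ISG15 from proteins and blocks the interferon receptor, at 6.80 and 7.51 FPKM against 13.7 and 19.1 FPKM.

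Downstream of IRF3 and NF-kB, 8 of 12 tested early genes were above (66.7%) and 1 below (8.33%), beside 16.2% and 10.7% over all genes. Their median log2 fold change of 0.98 was 0.94 and 0.96 after rescaling by median ratios and by quantiles. With a library left out the median ranged more widely. It ran from 0.77 without formaldehyde replicate 2, with 11 genes tested, to 1.32 without formaldehyde replicate 1. This list, like the others, was chosen with earlier results of these data known. OASL, an oligoadenylate synthetase relative that helps RIG-I, read 2.98 and 2.51 FPKM without and 10.8 and 11.6 FPKM with formaldehyde, which is 1.71 ± 0.20 (SE) higher on the log2 scale (limma adjusted p = 0.185). ISG15, a ubiquitin-like modifier, read 123 and 101 FPKM against 723 and 447 FPKM (limma adjusted p = 0.314). IFIT2, which binds foreign RNA and limits its translation, read 3.13 and 3.17 FPKM against 9.61 and 11.6 FPKM (limma adjusted p = 0.338). The list was not of a single direction, as IL6 and NFKBIA, chosen after their values were seen, show. IL6, an NF-kB target and the gene below, read 15.7 and 36.5 FPKM against 13.1 and 12.0 FPKM, a difference of -0.89 on the log2 scale. NFKBIA, the inhibitor that NF-kB induces, differed by -0.31 with overlapping groups. The stress factor ATF3 read 9.90 and 89.4 FPKM against 19.7 and 20.9 FPKM, so its -0.56 rests on untreated 2. The chemokine gene IL8 was among those above, with a difference of 0.23. ATF3 and IL8 were also chosen after their values were seen. The genes of the list, like the members, did not pass the threshold. OASL, ISG15 and IFIT2 can be induced both by IRF3 directly and by interferon. Of 12 interferon receptors and JAK-STAT genes, 2 were above (16.7%) and 3 below (25%). Their median log2 fold change of -0.10 was 0.0066 without untreated replicate 1. Those below were the receptor chains IFNGR1, at 21.9 and 20.0 FPKM against 16.2 and 19.5 FPKM, and IFNAR2, at 29.5 and 28.5 FPKM against 21.7 and 28.2 FPKM, and the kinase JAK2, at 2.04 and 1.72 FPKM against 1.72 and 1.63 FPKM (JAK2 named after its values were seen). The nearest libraries of the 2 groups lay close together for each, at 1.718 and 1.716 FPKM for JAK2. These gaps were not set against counting error. IRF9, a subunit of the complex that interferon activates, was among those above, at 15.6 and 15.3 FPKM without and 26.4 and 31.8 FPKM with formaldehyde.

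**Figure D4:**
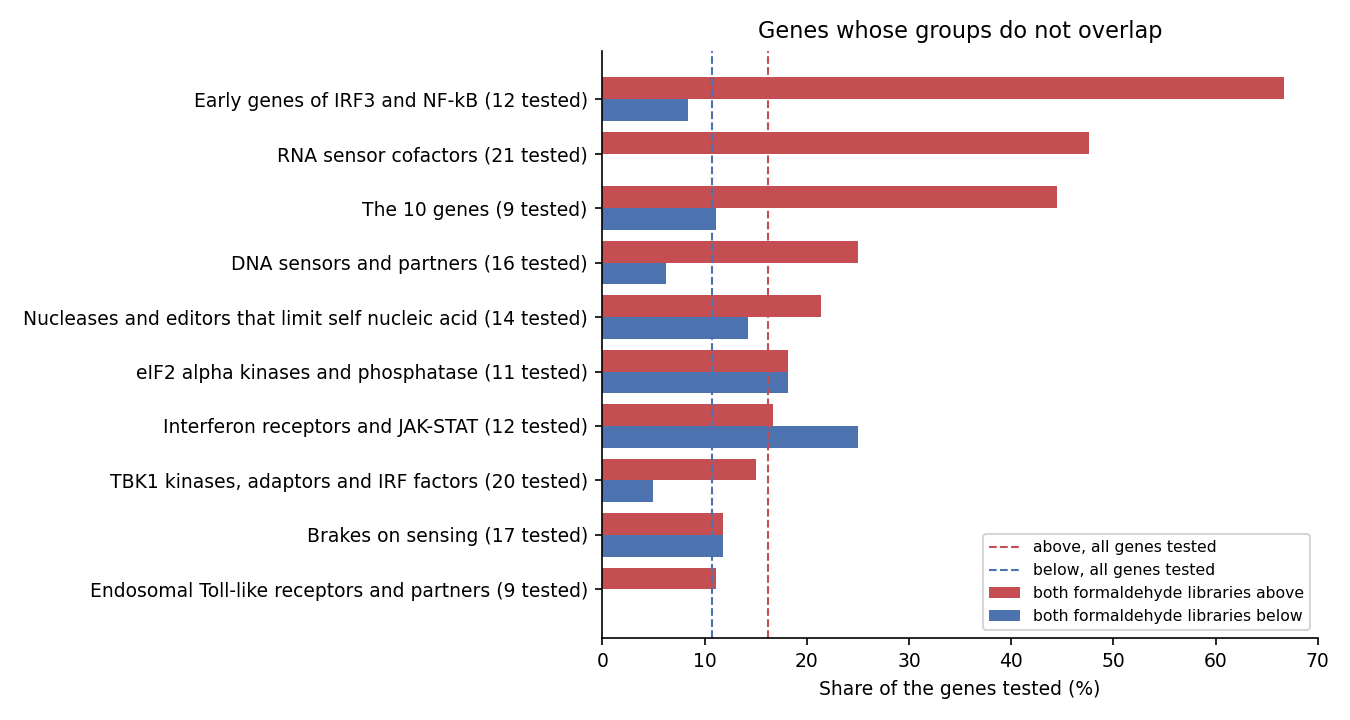
Share of tested genes (horizontal axis, percent) with the formaldehyde libraries both above (red) or both below (blue) the untreated ones, for the members and 9 lists; dashed lines are the shares over all 12407 genes, 16.2% above and 10.7% below. The early genes (8 of 12), the RNA sensor cofactors (10 of 21) and the members (4 of 9) have the longest red bars.

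Among 11 genes of the eIF2 alpha kinases and phosphatase, the pathway in which PKR acts, 2 were above and 2 below (18.2% each). The shares over all genes were 16.2% and 10.7%. EIF2AK3, the kinase of endoplasmic reticulum stress (PERK), read 6.74 and 7.16 FPKM without and 4.57 and 5.63 FPKM with formaldehyde. EIF2AK4, the amino acid sensor GCN2, read 21.3 and 15.2 FPKM against 25.7 and 20.8 FPKM, with overlapping groups. EIF2S1, which encodes the eIF2 alpha subunit itself, read 22.9 and 15.3 FPKM against 24.8 and 23.9 FPKM. The kinases of eIF2 alpha thus had no common direction.

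The genes most like DDX58 were sought by distance between the 4 library values of log2(FPKM + 1), each centred on its untreated mean, over 8682 genes. This is a description over 4 libraries. The nearest was LYAR, a nucleolar protein, at a distance of 0.0713, with 18.6 and 13.4 FPKM without and 29.3 and 32.3 FPKM with formaldehyde. NOP16, RRP9, RRS1 and SP100 followed, at 0.131 to 0.259. For EIF2AK2 the nearest was RSL1D1 at 0.0590, with 21.5 and 15.4 FPKM without and 23.7 and 28.8 FPKM with formaldehyde, followed by GNL3, C1QBP, DTX3L and SAMHD1. All 10 read lower in untreated 2 than in untreated 1, as DDX58 and EIF2AK2 did. The distance includes the untreated values, so it selects for this likeness.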

How the data were processed

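RNA from 4 BEAS-2B libraries was used, 2 per group. Per the submitters' processing notes reads were handled with STAR 2.5.2, Cufflinks 2.0.2 and FastQC 0.10.0, and the build was hg19 (GRCh37). How reads were trimmed, how multi-mapping ones were treated and whether strand was used is not given in the sources used here. The deposited files hold FPKM with bounds for 40255 transcripts, per the file attributes. The 894 without a gene name were left out, and the rest were summed for 23004 names. Fragment numbers and depth were recovered from the bounds and cover counting error only. They were not tested as counts. Genes with a mean of at least 1 FPKM were tested on log2(FPKM + 1), which shrinks the change of genes with low values, with limma 3.58.1 in R 4.3.3 (lmFit, eBayes with a mean trend), two-sided, with no covariate. The fit was checked on simulated libraries. The members, lists and tests were chosen with earlier results of these data known. All members are named, and from each list up to 4 genes with the largest absolute moderated t and those at 0 could be named. The results for some genes are not reported here. Alternatives were the pseudocount (0.1), the filter (none or 5 FPKM), scaling, highest transcript, genes of at least 300 nt, no trend, the replicate number as a block and each library left out. Figures used matplotlib 3.10.9 in Python 3.11.15 and promoters came from RefSeq tables.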

Additional observations from a re-analysis of the deposited data

How the results depend on the processing

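No member passed the limma threshold under any of the alternatives run. The number of genes called (19) was 0 with no filter on low values, 1 with genes of at least 300 nt, 29 with the replicate number as a block and 46 to 62 with a library left out; the cause was not tested. The labels do not say whether the replicate numbers pair the samples, and 2 pairs are too few to decide it (r = 0.25 across genes). With the block, 915 genes had an unadjusted limma p under 0.05, against 343 without it, and 0 members were called. Members whose groups do not overlap (5) numbered 3 after rescaling by quantiles and 6 to 8 with a library left out. Pathway genes of that kind (46) numbered 71 to 107 with a library left out, which leaves fewer samples to overlap. The log2 fold change reversed in sign with a library left out for DHX58 (-0.27 to 1.02), MAVS (-0.17 to 0.10), TBK1 (-0.26 to 0.26) and IRF3 (-0.13 to 0.41). For IRF3 it also reversed with the highest transcript of each library (-0.24), which was not the same transcript in all of them. DDX58, IFIH1, TMEM173, EIF2AK2 and TLR3 kept their direction under every alternative that gave a value, with EIF2AK2 at 0.26 to 0.76, TMEM173 at 0.14 to 0.69 and TLR3 at -0.38 to -0.09 with a library left out, and the filter of 5 FPKM left none for IFIH1 and TLR3. No scaling moved the median log2 fold change of all genes beyond -0.01 to 0.03. Depth limits IFNB1, which stands at or under 1 fragment, and TLR3, with 56 fragments in its shallowest library.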

Other observations

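IFNE, an interferon of epithelium that is made without infection, was the interferon gene with the most fragments, 4 and 13 in the untreated and 2 and 4 in the formaldehyde libraries, or 0.187, 0.387, 0.111 and 0.142 FPKM. Chosen after their values were seen, 4 genes that interferon and IRF3 induce are given by their fragment numbers, which are low for CXCL11 and RSAD2. The chemokine CXCL10 had 16 and 9 fragments untreated and 12 and 52 with formaldehyde, so its groups overlapped. CXCL11, another ligand of the same receptor, had 1 and 2 fragments untreated and 16 and 7 with formaldehyde. RSAD2, the antiviral enzyme viperin, had 4 and 3 fragments untreated and 14 and 43 with formaldehyde. CCL5, a chemokine for T cells, had 14 and 39 fragments untreated and 33 and 132 with formaldehyde, and its FPKM of 0.821 and 1.44 untreated and 2.26 and 5.78 with formaldehyde did not overlap although its fragment numbers did, since the libraries differ in depth. TNF, a target of NF-kB, had 9 and 15 fragments untreated and 1 and 9 with formaldehyde. Its FPKM of 0.366 and 0.387 untreated and 0.0480 and 0.276 with formaldehyde did not overlap, with both treated libraries below.

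MB21D1 (cGAS), the enzyme whose product activates STING, was detected in every library, at 16.2 and 14.8 FPKM without and 18.2 and 15.4 FPKM with formaldehyde, with overlapping groups. The DNA sensors AIM2, ZBP1 and PYHIN1 did not pass 4 fragments in any library. TLR9 had 1 and 7 fragments untreated and 2 and 3 with formaldehyde, and TLR7 had 1 and 2 fragments untreated and 0 in both formaldehyde libraries. Nuclear RNA differed between libraries of one group, with NEAT1 at 218 and 596 FPKM without and 485 and 335 FPKM with formaldehyde; its part in the values of the members was not tested.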
